A study of Mus musculus with 41 samples.

Results

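Fraction A of the Hardy scheme was compared with the common lymphoid progenitor (CLP) across all genes of the array. The comparison uses the 7 arrays titled as fraction A and the 7 titled as CLP, 14 of the 41 arrays of the series, chosen by their titles and by no measured value. Both populations were flow sorted from C57BL/6 mice with wild-type Pax5 that had received no treatment, and the labels name no other allele, agent or age for either. They also give no tissue, sorting gates or animals. The p-values therefore cover just the variation among these arrays, part or all of which may be technical, and precision is limited by how many arrays there are. RNA was taken up with the PicoPure kit, amplified with the NuGEN Ovation Pico chemistry for small inputs and hybridised to single-colour Affymetrix arrays. The question is how the earliest Hardy fraction differs from the lymphoid progenitor placed before it.

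As background, CLPs are bone marrow cells that respond to interleukin 7 and to the Flt3 ligand and can give rise to B cells, natural killer (NK) cells, other innate lymphoid cells, some dendritic cells and, in the thymus, T cells. Commitment to the B lineage runs through the transcription factors Tcf3, Ebf1 and Pax5, which switch on the surrogate light chain, the signalling chains of the B cell receptor and the recombinase that assembles immunoglobulin genes. Fraction A is the first fraction of the Hardy scheme and is described as pre-pro-B cells. It is usually sorted on B220, an isoform of CD45 that developing NK cells and plasmacytoid dendritic cells can also carry. NK cells kill through perforin and granzymes, sense their targets through receptors of the Ly49, NKG2 and NCR families, and depend on the T-box factors Tbx21 and Eomes.

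The arrays of fraction A were noisier than those of the CLP. The median over genes of the SD between arrays was 0.80 in A and 0.27 in the CLP on the log2 scale, and 0.34 in A without replicates 4, 6 and 7. The mean correlation of those 3 arrays with other A arrays was 0.769, 0.78 and 0.798, against 0.860 to 0.879 for the other A arrays and 0.940 to 0.962 for the CLP. The ratio of the 3' to the 5' probe set of Gapdh, which is high where RNA is short, was 33.8 and 16.7 on A replicates 4 and 7 and 6.40 to 8.70 on the other A arrays, and 3.56 to 5.08 on the CLP arrays, whereas the same ratio for actin spanned 0.849 to 1.26 in A, against 1.2 to 1.35 in the CLP. Median signals were 69.1 to 146 in A, against 110.0 to 130 in the CLP. The highest signal of an array was 162005.5, 409322.2 and 148647.2 on A replicates 4, 6 and 7. It was 45384.9 to 58221.9 on the other A arrays and 30304.8 to 38536.1 on the CLP arrays. No arrays were identical, and the closest pair correlated at 0.982.

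Genes of NK cells and of plasmacytoid dendritic cells were higher in fraction A, each for the members counted below. Genes of early B lineage commitment and of the B cell receptor chains were lower, again for the members counted. So were 5 of 6 tested genes of a type 2 and 3 innate lymphoid list, among them Kit and Cd81, which are not particular to those cells. Of 10509 genes tested, 884 (8.41%) rose and 1536 (14.6%) fell in A, together 2420 (23% of those tested), each at a Benjamini-Hochberg adjusted p under 0.05 from limma. At least a 2-fold difference was reached by 498 of the genes that rose and 1210 of those that fell, at least 4-fold by 107 and 181, and at least 8-fold by 38 and 36. The signals of all 7 A arrays lay above all 7 CLP arrays for 476 genes (4.53% of those tested) and below them for 629 (5.99%). A gene is said below to have risen or fallen in A only where it passed this test, and its difference is A minus CLP on the scale of log2(signal + 32) with its standard error. For genes that are dim in a population the 32 added before taking logarithms sets how large the difference comes out: that of Klra8 was 7.70 with 1 added, against 5.59 with 32. Signals of different genes come from different probe sets and are not compared as levels. Counts of 1 or 2 called members of a list often changed with another scaling, probe set rule or set of arrays. In bulk RNA, fewer cells of a type and less RNA per cell cannot be told apart.

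The median difference over all genes tested was -0.27, so a gene at 0 stood above most genes. With each array centred on its median signal the median of all genes moved to -0.04, and 1189 genes rose and 803 fell, so that the share of higher genes among those called went from 36.5% to 59.7%. Quantile normalization put the median at -0.15, with 781 genes higher and 1272 lower (38% higher). Without A replicates 4, 6 and 7 the median was -0.10, and 1748 genes (16.6% of those tested) rose and 2279 (21.7%) fell, 43.4% of them higher. Of the genes that rose with all 14 arrays in the fit 843 were also called higher in that fit, and of those that fell 1330 were also called lower. Leaving out each array in turn, 702 genes kept their call as higher and 1031 as lower in all 14 fits.

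**Figure D1:**
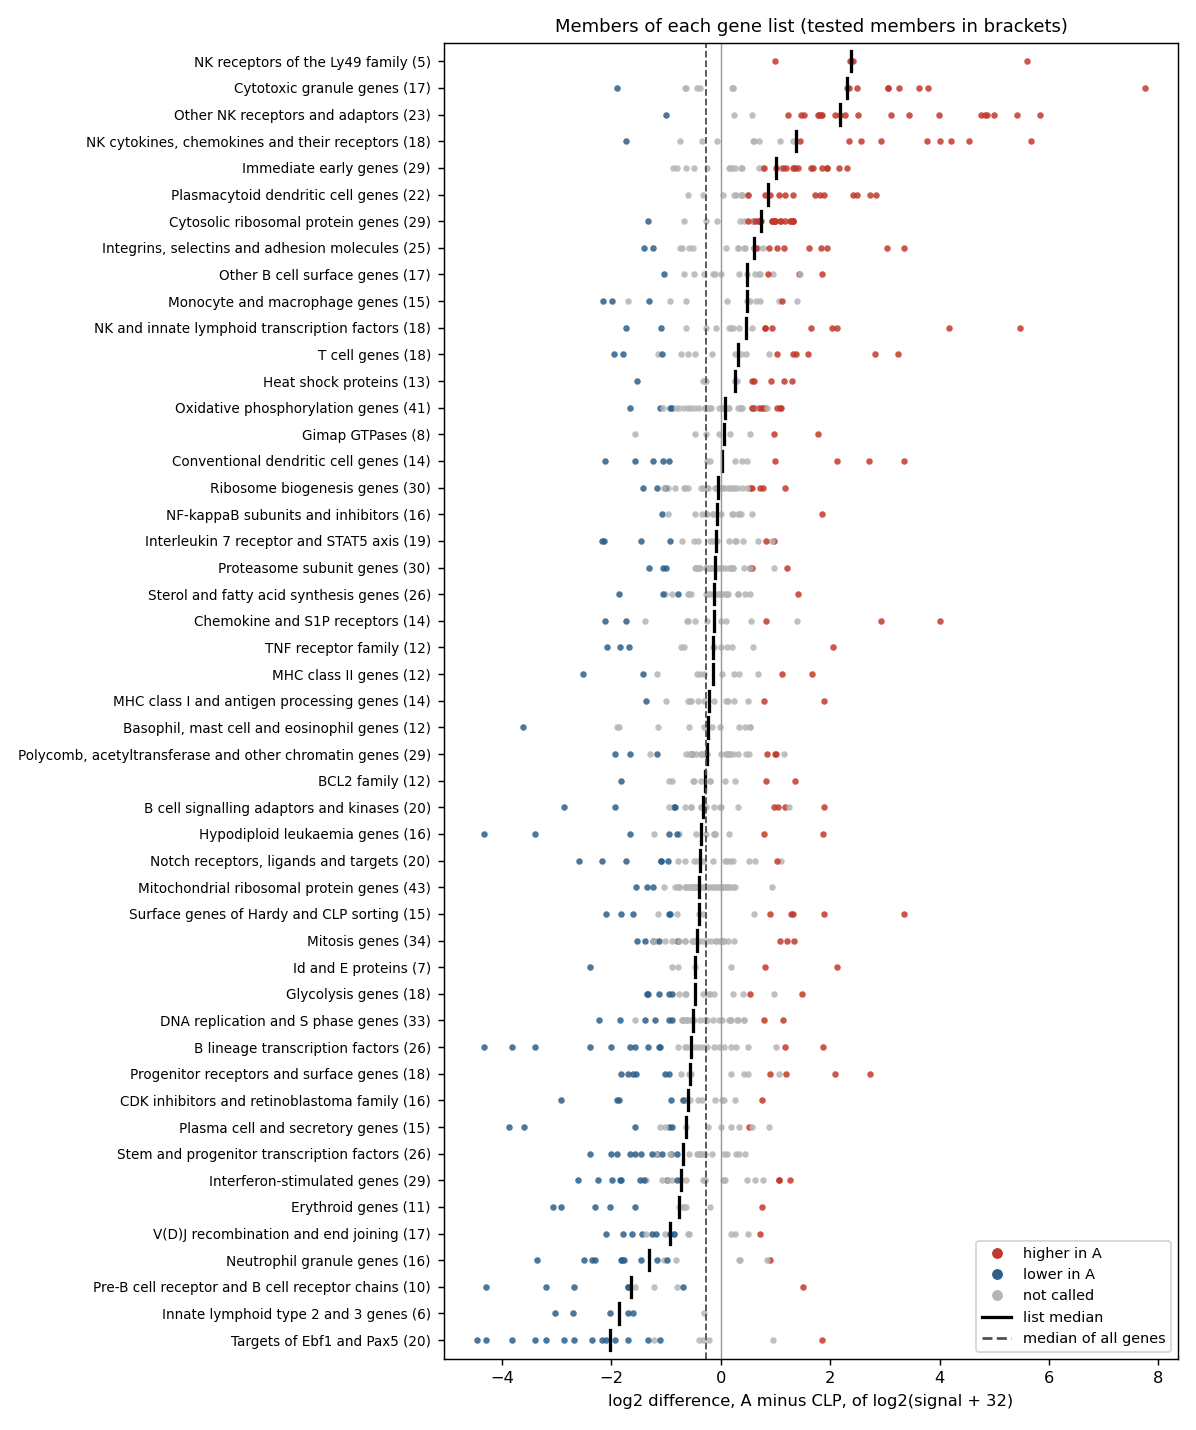
Each point is a tested gene of a list written for this comparison, placed by its log2 difference, A minus CLP, of log2(signal + 32). Red and blue points passed the limma test as higher or lower in A, grey points did not, the black bar is the list median and the dashed line the median of all genes tested (-0.27). NK lists stand at the top, with medians of 2.17 to 2.37 for the receptor and granule lists, and targets of Ebf1 and Pax5 at the bottom (-2.02).

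Genes were also read through lists of cell types, pathways and complexes. A gene entered the test if it reached its array's median on at least 5 of the 14 arrays, so a member that is silent in the CLP entered only because it is high in A. The list counts are therefore descriptions, to be read beside the 8.41% and 14.6% of all genes and the median of -0.27.

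The Ly49 family includes receptors that let NK cells read MHC class I on other cells. It is named by 21 symbols, of which 7 were annotated on the array and 5 entered the test. These 5 rose, with a median difference of 2.37, and all 5 also rose without A replicates 4, 6 and 7. Klra8, which encodes the activating receptor Ly49H, had CLP signals of 2.30 to 38.4 (median 6.6) and A signals of 793 to 4568 (median 2798). Its difference was 5.59 ± 0.40 (adjusted p = 3.81e-08), and every A array stood far above every CLP array. Klra7 (2.36 ± 0.26, adjusted p = 6.23e-06) and Klra5 (2.42 ± 0.39, adjusted p = 3.11e-04) did not overlap either, and Klra16 was the smallest rise (1.0 ± 0.27). Klra17 was uneven within A, with signals of 106 to 12532 in A, where the highest was replicate 4, and 48.4 to 129 in the CLP. Its call (2.37 ± 0.75, adjusted p = 0.03) was lost without A replicate 1 or without CLP replicate 2, 3, 4, 5 or 6 (adjusted p = 0.051 to 0.058). The Ly49 genes are near-identical copies, so a probe set of one member can take up RNA of another. Which cells carry each member was not tested, so Klra17 and the others are not read as particular to NK cells.

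Of 23 tested receptors and adaptors of NK cells outside the Ly49 family, 20 rose and 1 fell, with a median of 2.17. Without A replicates 4, 6 and 7 these counts were 21 and 1. The activating receptor Ncr1 (NKp46), used to define NK cells across species, had signals of 12.6 to 74.8 in the CLP (median 29.3) and 662 to 3633 in A (median 2926), a difference of 5.00 ± 0.38 (adjusted p = 9.21e-08). The lowest A array, replicate 6, was still several times the highest CLP array. Klrb1a, a lectin receptor by whose family NK cells are stained, ran from 2.60 to 224 (median 16.6) in the CLP and from 1673 to 3474 (median 2755) in A (5.42 ± 0.39, adjusted p = 4.50e-08). Styk1, a kinase-like receptor of NK cells, had the largest difference of the list (5.84 ± 0.39, adjusted p = 2.06e-08), with signals of 1.30 to 42.4 in the CLP and 1202 to 12060.5 in A. The NKG2 lectins Klrk1 (4.87 ± 0.37), Klrc1 (4.77 ± 0.32) and Klrc2 (2.5 ± 0.38), their partner Klrd1 or CD94 (3.99 ± 0.22) and the inhibitory receptor Klre1 (4.84 ± 0.28) rose with no overlap between the populations.

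The adaptors that carry the signals of these receptors rose as well. Tyrobp, which encodes DAP12, ran from 4369 to 6291 (median 5272) in the CLP and from 14578 to 46470.4 (median 24305) in A (2.27 ± 0.22, adjusted p = 1.60e-06). Fcer1g, the Fc receptor gamma chain, ran from 632 to 1074 (median 919.5) in the CLP and from 1469 to 5621 (median 4253) in A (2.09 ± 0.26, adjusted p = 3.23e-05). Cd244a, a receptor of the SLAM family, also showed no overlap (1.8 ± 0.20, adjusted p = 6.28e-06). These 3 genes are also used by myeloid cells. Slamf6, a receptor shared with T and B cells, was the member that fell (-1.0 ± 0.34, adjusted p = 0.0395). That call was lost without A replicate 2 or 5 or CLP replicate 1, 2, 4, 5, 6 or 7 (adjusted p = 0.053 to 0.088), and with median centring, quantile normalization and the mean of its probe sets (adjusted p = 0.192, 0.0648 and 0.0717).

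**Figure D2:**
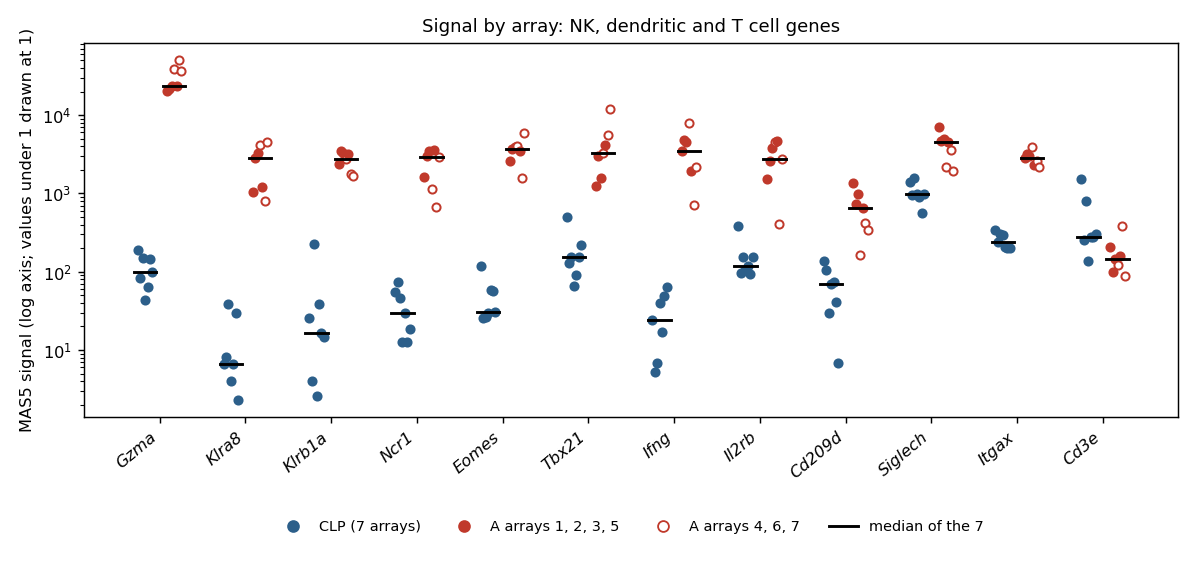
Each point is the MAS5 signal of a gene on an array, on a logarithmic axis with values under 1 drawn at 1: CLP arrays in blue, A replicates 1, 2, 3 and 5 as filled red points, A replicates 4, 6 and 7 as open red points, and bars at the median of 7 arrays. For every gene shown except Cd3e, all A arrays lie above all CLP arrays, and for Gzma the A arrays span 20157 to 51058 against 43.8 to 188 in the CLP.

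Granule genes changed in part. Of 17 tested of 21 annotated, 9 rose and 1 fell, with a median of 2.30 (11 and 1 without A replicates 4, 6 and 7). Gzma, the protease granzyme A, had CLP signals of 43.8 to 188 and A signals of 20157 to 51058 (median 23873). The difference of 7.76 ± 0.28 (adjusted p = 3.30e-12) was the largest rise among genes whose arrays did not overlap and that were also called without A replicates 4, 6 and 7. The lowest A array, replicate 1, was far above the highest CLP array. Granzyme B, by contrast, varied within A: Gzmb signals were 825 to 1065 on A replicates 1, 2, 3, 5 and 6 but 4.5 and 140.4 on replicates 4 and 7, and 5.00 to 157 in the CLP (3.06 ± 0.69, adjusted p = 0.00452). Gzmk rose without overlap (2.33 ± 0.27, adjusted p = 1.57e-05).

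Perforin, which opens the target membrane for granzymes, did not pass. Prf1 signals were 668 to 1076 in the CLP and 473 to 1861 in A (0.21 ± 0.27, adjusted p = 0.598), although the mean of its probe sets was higher in A (1.1, adjusted p = 0.00276). The granzyme inhibitors Serpinb6b (3.80 ± 0.27) and Serpinb9 (3.25 ± 0.30), the granule genes Ctsw (3.06 ± 0.40) and Nkg7 (2.30 ± 0.33), and the death ligand Fasl (3.62 ± 0.30) rose with no overlap between populations. The other death ligand of the list fell: Tnfsf10, which encodes TRAIL, had signals of 823 to 1119 in the CLP and 27.0 to 462 in A (-1.90 ± 0.39, adjusted p = 0.00224). Every A array was below every CLP array, and the lowest was under the array medians.

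Cytokines, chemokines and their receptors of NK cells rose for 9 of 18 tested members and fell for 1 (median 1.38), and 2 fell without A replicate 6. Interferon gamma, the main effector cytokine of NK and type 1 cells, had signals of 5.30 to 64.6 in the CLP (median 24.2) and 701 to 7844 in A (median 3479.9), and the Ifng difference was 5.67 ± 0.44 (adjusted p = 9.21e-08). The chemokines Xcl1 (4.54 ± 0.31) and Ccl5 (4.22 ± 0.24) rose without overlap. Ccl3 had A signals of 597 to 6133 against 707 to 3105 in the CLP and did not pass (1.32 ± 0.49, adjusted p = 0.0622); it passed without A replicate 5 or 6 or CLP replicate 7 (adjusted p = 0.032, 0.0088 and 0.036).

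The receptors of this list marked the same contrast. Il2rb, the chain shared by the receptors of interleukins 2 and 15 and needed by NK cells, ran from 92.7 to 386 (median 118) in the CLP and from 405 to 4655 (median 2762) in A (3.76 ± 0.46, adjusted p = 2.60e-05). Il18r1 (2.56 ± 0.38) and the sphingosine phosphate receptor S1pr5 (4.01 ± 0.43), which lets NK cells leave the bone marrow, rose without overlap, and Cxcr3 (2.93 ± 0.40) and Il10ra (2.35 ± 0.53) rose with overlapping arrays. Cxcr6, found on innate lymphoid progenitors and liver NK cells, fell (-1.74 ± 0.36, adjusted p = 0.00262).

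Of 18 transcription factors of NK and innate lymphoid cells, 8 rose and 2 fell, and 5 rose without CLP replicate 1 or 2 (10 and 2 without A replicates 4, 6 and 7). Of the 2 that fell, 1 (Bcl11b) lost its call without A replicate 2, 3 or 6 or any CLP replicate but 6. Eomes, of the T-box family, had signals of 25.9 to 118 in the CLP (median 30.2) and 1555 to 5879 in A (median 3671), and Tbx21, its relative T-bet, had 66.1 to 504 and 1243 to 11888. The differences were 5.47 ± 0.31 and 4.18 ± 0.46 (adjusted p = 2.69e-09 and 6.28e-06), and neither gene's arrays overlapped. Id2, an inhibitor of E proteins that all innate lymphoid lineages need, rose by 2.13 ± 0.28 (adjusted p = 5.67e-05), and Runx3 by 0.81 ± 0.20 (adjusted p = 0.00719), a call the mean of its probe sets did not keep (adjusted p = 0.143). Bhlhe40 rose with overlap (2.04 ± 0.45). Gata3, the factor of T cells and of type 2 innate lymphoid cells, had CLP signals of 202 to 553 and A signals of 5.30 to 234 and fell (-1.73 ± 0.40, adjusted p = 0.0055).

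The list of type 2 and 3 innate lymphoid genes moved the opposite way, through few tested members. Of 6 tested of 11 annotated, 5 fell and 0 rose (median -1.86), and the same count held in all 14 leave-one-out fits, without A replicates 4, 6 and 7 and with either scaling. Il17rb, a receptor for interleukin 25 on type 2 cells, ran from 1125 to 4303 (median 1731) in the CLP and from 20.8 to 703 (median 247) in A (-2.70 ± 0.48, adjusted p = 7.96e-04). Icos, a co-stimulatory receptor, had CLP signals of 1003 to 3938 and A signals of 4.4 to 860.3 and fell by 3.03 (0.69 SE, adjusted p = 0.00467). For both genes the CLP arrays with the highest signals were replicates 1 and 3. Arg1, an arginase of type 2 cells (-2.03 ± 0.36), and Cd81 (-1.70 ± 0.24), a tetraspanin of many lymphoid cells, fell without overlap. The remaining member that fell was Kit, given below among the receptors that mark CLPs. Of the listed genes Il22, Il23r and Il17a no more than 1 was tested, because only 1 tested member was not called. Their absence among the calls is therefore no result.

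Genes of T cells divided between the populations. Of 18 tested members 6 rose and 3 fell (median 0.31). Those that rose were the adhesion receptor Cd2 (3.23 ± 0.30), the kinases Txk (2.83 ± 0.37) and Zap70 (1.38 ± 0.36), the adaptor Skap1 (1.6 ± 0.44), Thy1 and Cd4 (1.33 ± 0.33), several of which NK or dendritic cells are known to express too. The CD3 chains, which define T cells, did not pass. Cd3e signals were 138 to 1506 in the CLP, with replicates 1 and 3 at 1506 and 811, and 87.0 to 387 in A (-1.14 ± 0.44, adjusted p = 0.0664). It passed as lower without A replicate 6 or CLP replicate 4 (adjusted p = 0.032 and 0.039). Cd3d (0.45 ± 0.58) and Cd3g (0.37 ± 0.49) overlapped widely, and Cd247, the zeta chain that NK cells share, stood at -0.60 ± 0.31 (adjusted p = 0.165) and at 0.05 without A replicates 4, 6 and 7. Of the 4 probe sets of Cd247, however, 2 passed as higher in A and 0 as lower, and their mean was 0.38 (adjusted p = 0.183). Lat (-1.07 ± 0.32, adjusted p with median centring 0.0554), which couples the T cell receptor to its pathway, and the inhibitory receptor Ctla4 (-1.95 ± 0.39) fell, as did Rag1, given with the recombinase. Summed over the 18 genes the signal was 11324 to 24523 in A, against 13043 to 22227 in the CLP.

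Plasmacytoid dendritic cells, which make type I interferon, share the B220 isoform with B cells. Of 22 tested genes of this type 13 rose and 0 fell (median 0.86), and 13 rose in each of the 14 leave-one-out fits. Their summed signal was 90723 to 178491 in A, against 40254 to 51192 in the CLP. Siglech, a receptor that defines the cell type in mice, ran from 554 to 1585 (median 969) in the CLP and from 1928 to 7144 (median 4576) in A (1.89 ± 0.29, adjusted p = 2.44e-04). All A arrays were above the CLP arrays, and the 3 lowest of them were replicates 4, 6 and 7. Cd209d, a C-type lectin, had signals of 6.80 to 137 and 162 to 1352 (2.72 ± 0.42, adjusted p = 2.50e-04). Pld4 (2.5 ± 0.23), Cd7 (2.84 ± 0.42), which NK cells also express, and Bst2 (1.06 ± 0.20) rose without overlap, and Pacsin1 (2.42 ± 0.47) rose with overlap.

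Transcription factors of this cell type rose too. Tcf4, the E protein that maintains plasmacytoid dendritic cells, had signals of 3830.3 to 5313 in the CLP and 5466 to 11386 in A (0.81 ± 0.17, adjusted p = 0.00233), with no overlap. Irf8, needed by plasmacytoid and type 1 conventional dendritic cells, rose by 1.17 ± 0.33 (adjusted p = 0.0171); its A signals were 2225 to 22879, where replicate 6 alone lay below the CLP arrays (3324 to 4512). Ly6d, carried by B-biased progenitors and by plasmacytoid dendritic cells, did not pass (-0.33 ± 0.26, adjusted p = 0.368).

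Genes of conventional dendritic cells were split, with 4 of 14 higher and 5 lower (median 0.03), and 2 lower with median centring. Itgax, the integrin CD11c that dendritic and NK cells carry, ran from 198 to 336 (median 236) in the CLP and from 2191 to 3913 (median 2869) in A, a difference of 3.35 ± 0.22 (adjusted p = 1.95e-08) with a narrow spread in both. Clec10a (2.71 ± 0.29) and Cst3 (1.0 ± 0.15) rose. Ccr7, the receptor of migrating dendritic cells and T cells (-2.12 ± 0.30), and Flt3 (-0.95 ± 0.21) fell without overlap. Among 12 tested genes of the MHC class II pathway 2 rose and 2 fell: H2-Aa, a chain of the antigen-presenting molecule, rose (1.66 ± 0.27, adjusted p = 4.12e-04), while H2-Ob, a chain of the inhibitor of peptide loading found in B cells, fell (-2.52 ± 0.24, adjusted p = 8.64e-07), with CLP signals of 2858 to 4043 and A signals of 280.3 to 849. Of the 2 that fell, H2-Ob passed in every fit and Rfxap did not without A replicate 4 or 7 or any CLP array. MHC class I genes had 2 of 14 higher and 1 lower (median -0.21), with 2 or 3 lower without A replicate 4, 5, 6 or 7 and 4 without replicates 4, 6 and 7. These counts changed with the scaling: 1 was higher and 5 lower with quantile normalization (median -0.32), and 2 and 0 with median centring (median 0.02).

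Factors of early B lineage commitment were lower in fraction A. Of 26 B lineage transcription factors tested, 10 fell and 2 rose (median -0.54), and 14 and 4 did without A replicates 4, 6 and 7. Ebf1, the pioneer factor of B cell specification, had signals of 2464 to 4860.3 in the CLP (median 3691) and 34.6 to 514 in A (median 126), a difference of -4.34 ± 0.40 (adjusted p = 8.64e-07). Its A arrays all lay far under the CLP arrays, replicates 4 and 7 included, and A had the lowest Ebf1 mean of the 7 populations (197, against 5822 in fraction B). Pax5, which holds cells in the B lineage, had signals of 694 to 2096 and 19.8 to 447 (-3.40 ± 0.44, adjusted p = 4.42e-05) and did not overlap. The E protein gene Tcf3 fell with overlap (-2.40 ± 0.50, adjusted p = 0.00257).

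Other factors of the list had smaller differences. Gfi1, a repressor of lymphoid and myeloid progenitors (-2.0 ± 0.44), and Sox4 (-1.12 ± 0.28) fell without overlap, though Sox4 lost its call with median centring (adjusted p = 0.0662) and with the mean of its probe sets (adjusted p = 0.106). Erg (-1.66 ± 0.32) and Lef1 (-1.33 ± 0.30) fell with overlap. Foxo1, which acts with Ebf1 and drives Rag expression, did not pass (-0.32 ± 0.29, adjusted p = 0.432) but fell without A replicates 4, 6 and 7 (-0.84, adjusted p = 0.00218) and with the mean of its probe sets (-0.58, adjusted p = 0.0222). Ikzf3, or Aiolos, was higher in A (1.86 ± 0.37, adjusted p = 0.00167), with signals of 2214 to 19830.4 against 1449.6 to 4074 in the CLP. It is expressed by NK cells as well as by B cells.

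Genes that Ebf1 and Pax5 are known to activate had the lowest list median, -2.02, with 14 of 20 tested members lower and 1 higher (17 and 1 without A replicates 4, 6 and 7). Igll1, the lambda5 part of the surrogate light chain, had signals of 6923 to 9873 in the CLP and 89.8 to 3155 in A (median 176), and fell by 4.30 on the log2 scale (0.61 SE, adjusted p = 1.01e-04). Cplx2, a complexin that Ebf1 induces in early B cells, had signals of 845 to 8607 and 0.8 to 1682 (-4.46 ± 0.85, adjusted p = 0.00136). The adaptor Blnk (-2.88 ± 0.41), the ectoenzyme Bst1 (-2.11 ± 0.38), Tlr4 (-2.35 ± 0.41) and Myl4 (-2.18 ± 0.30) fell with no overlap, and the mean of the probe sets of Myl4 did not pass (adjusted p = 0.0608). Cd55, a complement regulator on many blood cells, was the member that rose (1.84 ± 0.54, adjusted p = 0.0194), a call lost with the mean of its probe sets (adjusted p = 0.0721).

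Within A these genes were not even. Pou2af1, the B cell coactivator OBF-1, had signals of 111, 182, 347, 10002, 99.2, 154 and 1474 on A replicates 1 to 7, where the CLP arrays were 4319 to 8089. Cd79a, a signalling chain of the B cell receptor, had 159, 163, 172, 4454, 226, 139.6 and 868, against 2322 to 4985 in the CLP. Replicates 4 and 7 thus stood apart in both genes, with replicate 4 inside or above the CLP range, and in Igll1 (3155 and 1723) and Cplx2 (1682 and 797). These are the arrays with the highest Gapdh 3' to 5' ratios, whereas their actin ratios were not high (0.849 on replicate 4 and 1.12 on replicate 7). The part of RNA quality in these values was not tested. The differences of Pou2af1 (-3.82 ± 0.74) and Cd79a (-3.20 ± 0.59) became -5.03 and -4.09 without A replicates 4, 6 and 7, and those of Igll1 and Cplx2 became -5.28 and -5.84.

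Vpreb1, the other part of the surrogate light chain, divided the A arrays. Its signals were 673, 509, 3823 and 2153 on A replicates 1, 2, 3 and 5, but 53963, 22307 and 38299.5 on replicates 4, 6 and 7, while the 7 CLP arrays were within 12031 to 14193. Vpreb1 did not pass (-1.22 ± 0.86, adjusted p = 0.309), and without those 3 arrays it fell (-3.25, adjusted p = 4.62e-04), as it did with quantile normalization (-2.10, adjusted p = 0.0423). The part of array quality in this pattern was not tested.

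**Figure D3:**
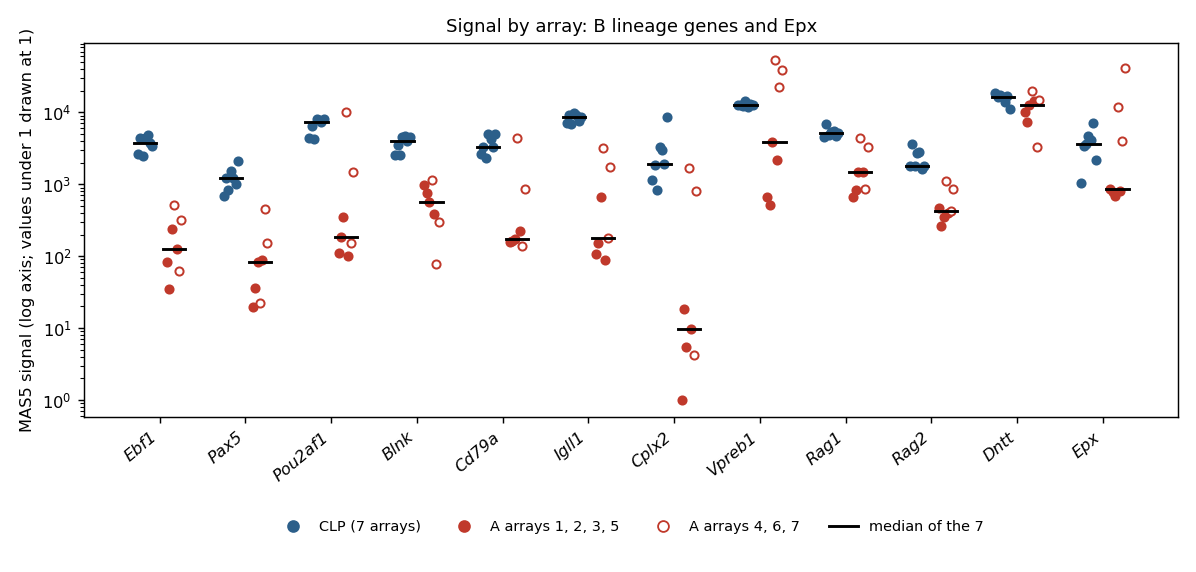
Each point is the MAS5 signal of a gene on an array (logarithmic axis, values under 1 drawn at 1), with CLP arrays in blue, A replicates 1, 2, 3 and 5 as filled red points, A replicates 4, 6 and 7 as open red points and bars at the medians of 7. Ebf1 and Pax5 are low on every A array, whereas Pou2af1, Cd79a, Cplx2, Vpreb1 and Epx reach CLP levels or more on some of the open points.

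Of 10 tested chains of the pre-B and B cell receptors 6 fell and 1 rose (median -1.63, 7 and 1 without A replicates 4, 6 and 7). Vpreb3 (-2.69 ± 0.51) and Cd79b (-1.71 ± 0.47) fell with overlap, and Cd79b lost its call with median centring (adjusted p = 0.0666). The heavy chain gene Ighm did not pass (-0.79 ± 0.35, adjusted p = 0.108), and it passed as lower without A replicate 4 (adjusted p = 0.0299) and with quantile normalization (adjusted p = 0.0312). Its probe sets disagreed, and their mean stood at -3.29 (adjusted p = 2.58e-04). Cd22, an inhibitory co-receptor of B cells, rose (1.5 ± 0.40, adjusted p = 0.0122), with CLP signals of 57.8 to 224 and A signals of 78.6 to 847.

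A kappa light chain probe set had the largest fall of the genes tested. Igk-V21 had signals of 476, 1128 and 209 on CLP replicates 1, 2 and 3 and of 2312, 2271, 9655 and 15766 on replicates 4 to 7, against 2.5 to 103 in A (-5.25 ± 0.74, adjusted p = 9.63e-05). Igk ran from 6412 to 24072 (median 13861) in the CLP and from 110.4 to 3820.3 (median 657) in A (-3.89 ± 0.63, adjusted p = 3.61e-04). Both genes were lower on every A array than on every CLP array. Light chain genes are assembled late in B cell development, and plasma cells express them strongly. The joining chain gene Jchain, a gene of plasma cells, had signals of 1053, 1660.3 and 2562 on CLP replicates 1 to 3, 8277, 6636, 16092 and 18936 on replicates 4 to 7, and 122 to 1122 in A (-3.88 ± 0.64, adjusted p = 4.03e-04).

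Of 15 tested plasma cell and secretory genes 5 fell and 1 rose (median -0.64), while 3 fell without CLP replicate 4, 5, 6 or 7, 2 fell with median centring, 2 rose without A replicate 4 and 4 without replicates 4, 6 and 7. The plasma cell marker Sdc1, or CD138, which pre-B cells also carry, fell without overlap (-3.59 ± 0.43, adjusted p = 1.90e-05), with CLP signals of 2543 to 3945 and A signals of 35.0 to 663. The summed signal of the list was 31514 to 68474 in the CLP and 31350 to 39814 in A, and the part of these markers in the light chain values was not tested.

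Signalling proteins of B cells did not share a direction, with 4 of 20 higher and 4 lower (median -0.32). Without A replicates 4, 6 and 7 the counts were 6 and 6 and the median 0.17, and with median centring 4 and 2 (median -0.09). Blnk, Rasgrp3 (-1.94 ± 0.44) and Plcg2 (-0.84 ± 0.21) fell, and Plcg2 lost its call with median centring (adjusted p = 0.0925). Rasgrp1 (1.89 ± 0.44), the relative of Rasgrp3 that T and NK cells use, Prkcb (1.18 ± 0.21) and the kinase Fyn (1.04 ± 0.17) rose. Other surface genes of B cells had 3 of 17 higher and 1 lower (median 0.48), with 6 higher without A replicate 7, 7 without replicates 4, 6 and 7, 1 with the mean of probe sets, and 0 lower with either scaling or without A replicate 7 or CLP replicate 2, 3, 4, 6 or 7.

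Genes of V(D)J recombination and end joining fell for 8 of 17 tested members and rose for 1 (median -0.93), and 5 fell without CLP replicate 2, 3 or 4 and 4 with median centring. Without A replicates 4, 6 and 7 the median was -0.48 with 9 lower, and 0 rose with the mean of probe sets. Rag1, a subunit of the recombinase, ran from 4491 to 6837 (median 5210.4) in the CLP and from 673 to 4400.3 (median 1490.1) in A (-1.80 ± 0.35, adjusted p = 0.00146). Rag2, the other subunit, ran from 1641 to 3674 (median 1803) and from 259 to 1097 (median 418) (-2.11 ± 0.31, adjusted p = 1.41e-04). Neither overlapped, and the highest A arrays were replicates 4 and 7 for both. Dntt, the polymerase that adds bases at the joints, did not pass (-0.59 ± 0.30, adjusted p = 0.156), with 11081 to 18562 in the CLP and 3285 to 19913 in A. It passed as lower without A replicates 4, 6 and 7 (adjusted p = 0.0241), with quantile normalization (-1.34, adjusted p = 6.31e-04) and with the mean of its probe sets (-1.13, adjusted p = 1.20e-04), and 2 of its 3 probe sets were lower. The joining genes Lig4 (-1.63 ± 0.37) and Xrcc6 (-1.25 ± 0.30) fell with overlap.

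Along the interleukin 7 axis 2 of 19 genes rose and 4 fell (median -0.09, or 0.14 with median centring and 0.13 with 6 higher without A replicates 4, 6 and 7), and 1 rose without A replicate 5 or CLP replicate 2, 4, 5, 6 or 7. Il7r, the receptor that B progenitors depend on, ran from 6715 to 10658 (median 8238) in the CLP and from 2494 to 5757 (median 5168) in A (-0.93 ± 0.19, adjusted p = 0.0024), with no overlap, and its adjusted p with median centring was 0.0622. Cish (-2.13 ± 0.41), a feedback inhibitor that STAT5 induces, and Ccnd3 (-2.18 ± 0.23), the D cyclin that pre-B cells need, fell without overlap, and Mycn (-1.45 ± 0.37) fell with overlap. The kinase Jak1 rose (0.98 ± 0.19, adjusted p = 0.0015).

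Several of the largest falls were outside these lists. Scn4b, a sodium channel subunit, had signals of 874 to 1943 in the CLP and 3.40 to 201 in A (-4.42 ± 0.37, adjusted p = 2.70e-07). Gfra2, a receptor of the neurturin family, had 5436 to 7498 and 37.7 to 5322 (-4.12 ± 0.65, adjusted p = 2.95e-04), with A replicate 4 alone near the CLP range and the difference at -5.34 without replicates 4, 6 and 7. The lens filament gene Bfsp2 (-4.08 ± 0.34), the myosin light chain Myl10 (-3.92 ± 0.31), 1700048O20Rik (-4.09 ± 0.37), Ankrd33b (-3.74 ± 0.32) and the progesterone receptor Pgr (-3.63 ± 0.32) fell without overlap. Among the largest rises, Tmsb15a, a thymosin that binds actin monomers, was likewise outside them, with signals of 23.9 to 316 in the CLP and 1187 to 15519.9 in A (5.58 ± 0.53, adjusted p = 1.07e-06).

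Transcription factors of stem cells and early progenitors fell for 11 of 26 tested members and rose for 0 (median -0.69, 14 and 0 without A replicates 4, 6 and 7, and 6 and 0 with median centring). Meis1, a partner of HOX proteins in stem cells, had signals of 359.6 to 1506 in the CLP and 66.0 to 304 in A (-1.57 ± 0.37, adjusted p = 0.00566) and did not overlap. Hoxa9, which supports early lymphoid progenitors, overlapped (-1.90 ± 0.54, adjusted p = 0.0183), with 3062 to 5401 and 154 to 3587. Gfi1, Tcf3 and Erg, given above, were the others with large differences, and smaller falls were those of Mef2c (-1.26 ± 0.34), Hoxa7 (-1.08 ± 0.29) and Lyl1 (-0.91 ± 0.24), whose calls were lost with median centring (adjusted p = 0.0789, 0.0665 and 0.0874).

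Surface genes of progenitors were mixed, with 4 of 18 higher and 6 lower (median -0.56, -0.25 and -0.20 without A replicate 4 or 7, and -0.12 without replicates 4, 6 and 7). Cd93, a surface antigen of early B lineage cells, ran from 5216 to 6122 (median 5536) in the CLP and from 581 to 2473 (median 1772) in A (-1.83 ± 0.24, adjusted p = 5.28e-05), with no overlap. Kit, the receptor of stem cell factor, fell (-1.60 ± 0.35, adjusted p = 0.00377), with 527 to 1113 in the CLP against 84.1 to 599.9 in A, and Cd34 (-1.70 ± 0.42), Il6st (-1.01 ± 0.21) and Prom1 (-1.56 ± 0.43) fell. Ctla2a (2.09 ± 0.18) and Ctla2b (2.72 ± 0.23), protease inhibitor genes of activated lymphocytes and progenitors, and Cd48 (1.18 ± 0.16) rose without overlap. Ctla2a and Ctla2b are close copies and can share signal.

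The genes that sorting schemes use for these populations had 5 of 15 tested members higher and 5 lower (median -0.40, or -0.65 without A replicate 4). Ptprc, which encodes CD45 and with it B220, ran from 4332 to 7418 (median 5849) in the CLP and from 10810.5 to 17617 (median 13119) in A (1.27 ± 0.15, adjusted p = 1.98e-05). The probe set does not tell its isoforms apart. Spn, or CD43, which defines the early Hardy fractions, ran from 10157 to 11781 (median 11204) and from 15877 to 27918 (median 18702) (0.90 ± 0.15, adjusted p = 3.98e-04), a call lost with quantile normalization (adjusted p = 0.343) and with the mean of its probe sets (adjusted p = 0.803). Cd24a, the heat stable antigen that is low in fraction A, did not pass at its brightest probe set (-0.40 ± 0.26, adjusted p = 0.261), while 2 of its 3 probe sets passed as lower and their mean stood at -0.79 (adjusted p = 0.0134). It also passed as lower with quantile normalization (-1.17, adjusted p = 1.80e-05). Its A signals were 7089.9 to 30150.5 with replicate 4 the highest, against 12827 to 15328 in the CLP, and it fell without replicate 4 (adjusted p = 0.005) and without replicates 4, 6 and 7 (-0.80, adjusted p = 2.76e-06). The receptors that mark CLPs, Il7r, Flt3 (-0.95 ± 0.21) and Kit, were lower in A, and Flt3 signals of 1904 to 2941 in the CLP and 873 to 1787 in A did not overlap. The arrays are called by their titles throughout. Defining genes of B lineage commitment were nonetheless lower in the arrays titled fraction A than in those titled CLP. All 7 A arrays stood above all 7 CLP arrays for 4.53% of all genes tested. They did so for 3 of 5 Ly49 and 16 of 23 other NK receptor and adaptor genes. Members silent in the CLP entered the test only because they are high in A, so these counts are descriptions.

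Notch receptors, ligands and targets, which promote T over B cell fate, fell for 6 of 20 members and rose for 1 (median -0.38), and 2 rose without A replicate 2, 3 or 6 and 3 fell with median centring. The targets Il2ra (-2.60 ± 0.40, adjusted p = 2.31e-04) and Dtx1 (-2.18 ± 0.44, adjusted p = 0.00195) and the glycosyltransferase Mfng (-1.09 ± 0.31, adjusted p with median centring 0.0528) fell, whereas Nrarp (1.03 ± 0.25), a feedback target, rose. Notch1 did not pass (-0.65 ± 0.29, adjusted p = 0.116). Of 7 Id and E proteins, Id2 and Tcf4 rose and Tcf3 fell (median -0.47, or -0.16 without A replicate 7), and 2 fell without A replicate 7 or CLP replicate 1.

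Adhesion molecules rose for 10 of 25 tested members (median 0.60) and fell for 2, and without A replicates 4, 6 and 7 these counts were 15 and 1. Itga2, the CD49b chain by which NK cells are sorted, had signals of 2.20 to 65.1 in the CLP and 5.80 to 1481 in A, where replicate 7 alone was at the CLP level (3.03 ± 0.62, adjusted p = 0.00217). Itgb1 (1.94 ± 0.25), its partner, and Itgal (1.62 ± 0.22), of LFA-1, rose without overlap, and Itgb2 (1.03 ± 0.24) and Selplg (1.15 ± 0.29) with overlap from replicate 6. The 2 members that fell, Icam2 and Itgae, kept a count of 2 without A replicate 4 or CLP replicate 6 and had 1 or 0 calls without each other array. Itgam, the CD11b chain of mature NK and myeloid cells, did not pass (0.60 ± 0.31, adjusted p = 0.169), though it did with median centring (adjusted p = 0.0387) and without A replicates 4, 6 and 7 (adjusted p = 0.0381).

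Among 14 receptors for chemokines and sphingosine phosphate, S1pr5, Cxcr3 and Cxcr4 (0.83 ± 0.25) rose and Ccr7 and Cxcr6 fell. Cxcr4, which holds progenitors in the bone marrow, lost its call with quantile normalization (adjusted p = 0.545). Of 8 GIMAP GTPases, which support lymphocyte survival, 2 rose, and Gimap4 stood at 1.78 ± 0.22 (adjusted p = 3.04e-05) with 1818 to 2560.3 in the CLP and 2976 to 9051 in A. Gimap4 was the single member that rose without A replicate 1, 3, 5 or 7 or CLP replicate 2, 4, 5, 6 or 7, and 1 member fell without A replicate 1, 2, 3, 5, 6 or 7. Of 12 TNF receptor genes Tnfrsf9 (2.05 ± 0.44), a co-stimulatory receptor, rose, and Tnfrsf19 (-2.08 ± 0.43), Tnfrsf21 (-1.67 ± 0.43) and Tnfrsf22 (-1.84 ± 0.45) fell.

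**Figure D4:**
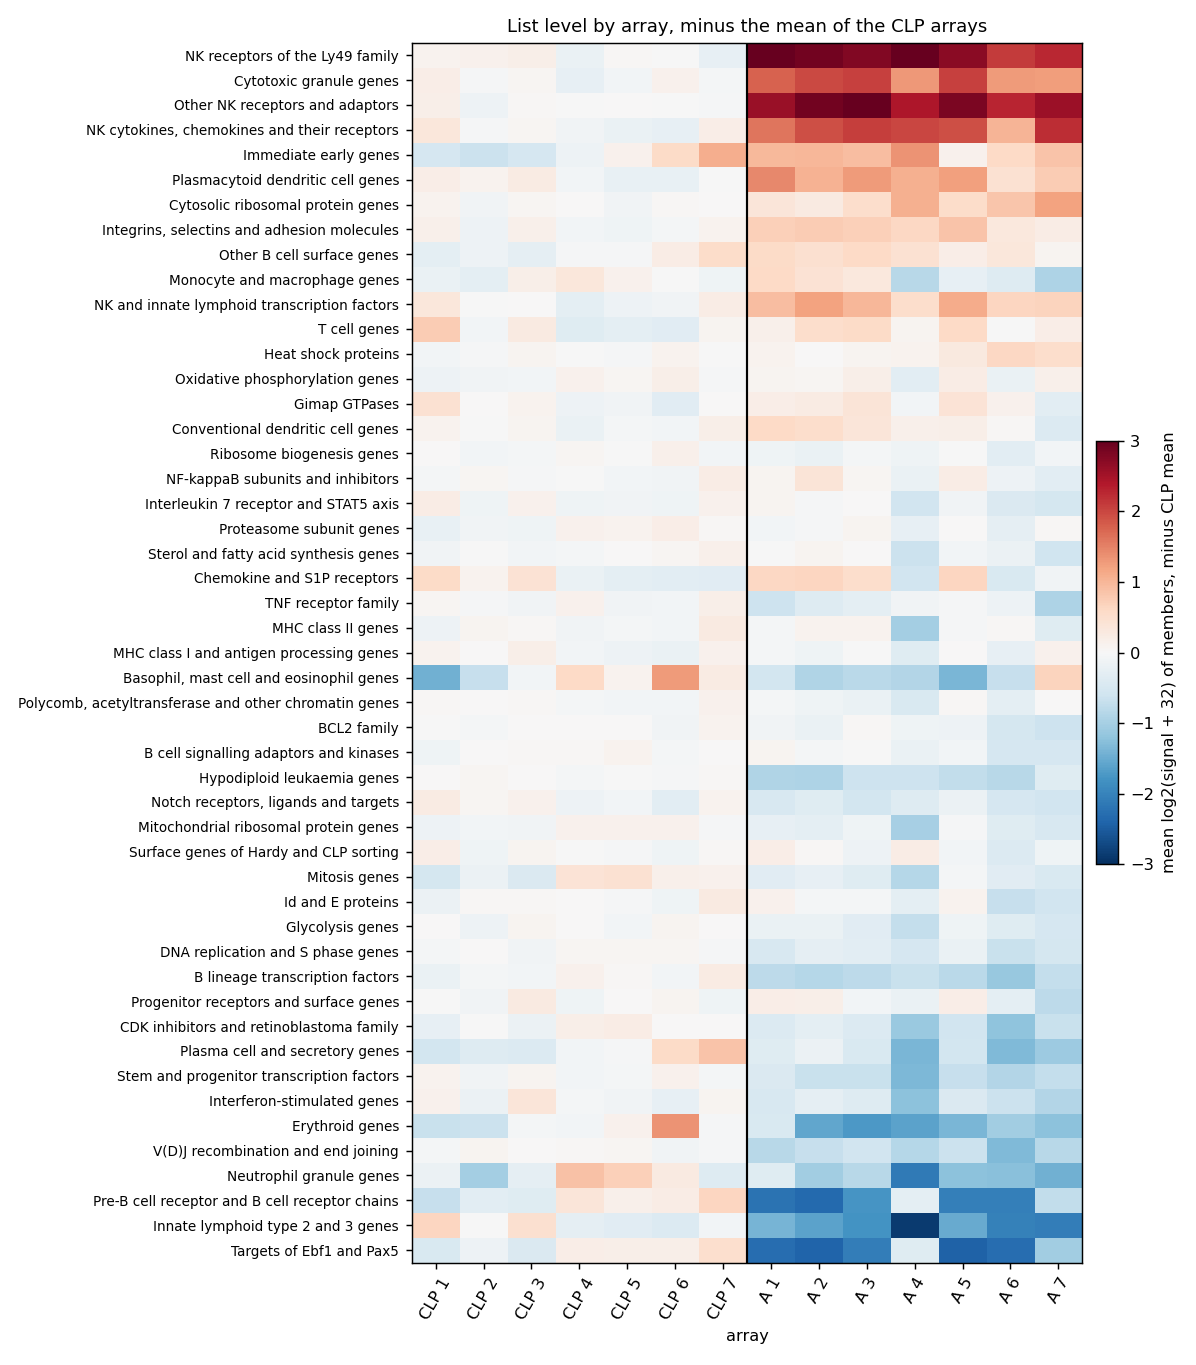
Each row is a gene list and each column an array, coloured by the mean of log2(signal + 32) over the tested members minus the mean of that value over the 7 CLP arrays (blue lower, red higher, scale from -3 to 3). The NK rows are red on all 7 A arrays, the rows of Ebf1 and Pax5 targets and of B cell receptor chains are blue, least so on A replicates 4 and 7, and the erythroid, basophil and immediate early rows differ among the CLP arrays themselves.

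Genes of other blood cells were examined for what the sorted cells might hold besides lymphoid progenitors. Neutrophil granule genes fell for 10 of 16 tested members and rose for 1 (median -1.31, 8 and 2 without A replicates 4, 6 and 7, and 6 and 2 with median centring). Chil3, a chitinase-like protein of myeloid cells, ran from 341 to 2716 (median 1033) in the CLP and from 7.40 to 172 (median 103) in A (-3.36 ± 0.50, adjusted p = 1.55e-04). Camp (-2.50 ± 0.60) and Ltf (-2.30 ± 0.49), of late granules, fell with overlap. Mpo, of early granules, was the member that rose (0.90 ± 0.21, adjusted p = 0.00511), and quantile normalization removed that call (adjusted p = 0.344). Without A replicate 4 there were 2 members that rose. The summed signal of the list overlapped, at 25335 to 55036 in A, against 18447 to 62889 in the CLP.

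Monocyte and macrophage genes had 1 of 15 higher and 3 lower, and 5 lower and 2 higher without A replicate 6 (4 higher and 6 lower without replicates 4, 6 and 7). The lysozymes Lyz2 (-2.16 ± 0.42) and Lyz1 (-1.99 ± 0.37) fell and the cathepsin Ctss (1.11 ± 0.18) rose. Csf1r, the receptor that defines the lineage, did not pass (1.07 ± 0.60, adjusted p = 0.205), with 458 to 26759 in A. The complement gene C1qb divided A: it was 685, 1804 and 2409.7 on replicates 1, 2 and 3 and 23.5, 143, 30.9 and 7.60 on replicates 4 to 7, against 44.3 to 368 in the CLP. Its difference of 0.11 ± 0.84 (adjusted p = 0.939) was below 0 without A replicate 1, 2 or 3, without CLP replicate 6 and with a pseudocount of 1, whereas it passed as higher without A replicates 4, 6 and 7 (1.85, adjusted p = 0.0444).

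Of 12 genes of basophils, mast cells and eosinophils 1 fell, and 2 did without A replicate 1 or 7 or CLP replicate 1 or 2 (4 without A replicates 4, 6 and 7). Fcer1a, the IgE receptor chain, ran from 82.1 to 2542 (median 525) in the CLP and from 3.10 to 29.1 (median 8.0) in A (-3.62 ± 0.59, adjusted p = 3.54e-04). The CLP arrays themselves differed, with 82.1 and 101 on replicates 1 and 2 and 2542 on replicate 6. Epx, a peroxidase of eosinophils, was 695 to 862 on A replicates 1, 2, 3 and 5 and 11967, 4019.8 and 41252 on replicates 4, 6 and 7, against 1034 to 7190.0 in the CLP. It did not pass (-0.32 ± 0.78, adjusted p = 0.799), and it fell without those arrays (-2.01, adjusted p = 0.00204). The summed signal of the list was 6488 to 129547 in A, against 6782 to 45974 in the CLP.

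Erythroid genes fell for 5 of 11 members and rose for 1 (median -0.77), and 3 fell without CLP replicate 6. On that array Klf1, the erythroid master factor, was 1562 and Car1 4584, the highest of the 7 in both. The differences were -2.31 ± 0.47 for Klf1, whose populations did not overlap, and -2.92 ± 0.59 for Car1 and -3.08 ± 0.60 for Ermap, which overlapped through A replicate 1. The transferrin receptor Tfrc rose (0.75 ± 0.15), a call lost with quantile normalization (adjusted p = 0.176) and with the mean of its probe sets (adjusted p = 0.0963). Of 2 tested megakaryocyte genes Pf4 fell (-1.64 ± 0.44) and Gp1bb rose, a call lost without CLP replicate 7. The part of such other cells in the genes described above was not tested.

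Immediate early genes, which cells switch on within minutes of a stimulus, rose for 14 of 29 tested members and fell for 0 (median 1.01). The count depended on the CLP arrays: 8, 8, 9 and 8 members rose without CLP replicate 1, 2, 3 or 4, 1 member fell without A replicate 6, and 10 rose without A replicates 4, 6 and 7. Egr1 was 490.0, 432 and 282 on CLP replicates 1 to 3 and 1481, 1818, 4824 and 7453 on replicates 4 to 7, against 2819 to 13970.1 in A (2.16 ± 0.60, adjusted p = 0.0159). Fos followed the same CLP arrays (1.94 ± 0.63, adjusted p = 0.033), and its call was lost without A replicate 1, 2, 3, 6 or 7 or CLP replicate 1, 2, 3 or 4 (adjusted p = 0.052 to 0.072) and with quantile normalization (adjusted p = 0.0701). Fosl2 (1.94 ± 0.29, adjusted p = 1.95e-04) and Jund (1.85 ± 0.35, adjusted p = 0.00139) rose without overlap, and Klf6 (1.01 ± 0.27) and Btg2 (1.19 ± 0.32) with overlap. Without A replicates 4, 6 and 7 the calls of Egr1 and Fos were lost (adjusted p = 0.144 and 0.193), while Fosl2, Jund, Klf6 and Btg2 passed.

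Interferon-stimulated genes fell for 9 of 29 members and rose for 3 (median -0.74), and 5 rose without A replicate 4, 6 or 7. Oas3, a sensor of double-stranded RNA (-2.24 ± 0.30, adjusted p = 5.28e-05), and Isg20, an exonuclease (-2.60 ± 0.37, adjusted p = 9.63e-05), fell without overlap, and the GTPase Gbp6 (-1.99 ± 0.47) with overlap. Stat2 (1.06 ± 0.29) and Ifi35 (1.26 ± 0.36) rose along with Bst2. With median centring 6 members rose and 6 fell.

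Genes of the NF-kappaB pathway, heat shock and the BCL2 family moved in single members. Of 16 NF-kappaB genes Traf1 rose (1.85 ± 0.37) and Rel fell, a call that held without A replicate 2, 5 or 6 and was lost without each other array. Without A replicate 4, 3 of them rose. The median of -0.07 became 0.16 with median centring, 0.19 with quantile normalization and 0.24 without A replicates 4, 6 and 7. Of 13 heat shock genes 5 rose and 1 fell (median 0.26), but with quantile normalization the median was -0.15 and 1 rose and 2 fell, and 2 fell without A replicate 7. Hspa8, the constitutive HSP70, stood at 1.30 ± 0.24 and at 0.12 with quantile normalization (adjusted p = 0.156), and the co-chaperone Stip1 fell (-1.53 ± 0.27). Among 12 BCL2 family genes the sensitiser Pmaip1, or Noxa (1.36 ± 0.41), rose and Bok fell (-1.83 ± 0.31). Bcl2 rose too, and it lost its call without A replicate 4, 5 or 7 or CLP replicate 2, 4, 5, 6 or 7, while 2 members fell without A replicate 2, 3, 5 or 6.

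Genes of DNA replication fell for 6 of 33 tested members and rose for 2 (median -0.51, or -0.37 without A replicate 6), and 10 fell without A replicate 2 and 14 without A replicates 4, 6 and 7. The counts of 6 and 2 were near the 14.6% and 8.41% of all genes tested that fell and rose. Without A replicates 4, 6 and 7, 21.7% of all genes tested fell. With quantile normalization 15 replication genes fell and with the mean of probe sets 17, and 0 rose with either. Gins2, of the replicative helicase, ran from 2019 to 2567 (median 2486) in the CLP and from 97.0 to 1079 (median 667) in A (-2.22 ± 0.40, adjusted p = 9.19e-04). The thymidine kinase Tk1 (-1.84 ± 0.29) and Uhrf1 (-1.38 ± 0.20), which maintains DNA methylation, fell without overlap. The count of 2 that rose, Pold1 and Fen1, held without A replicate 1, 2, 3 or 5 and was 1 or 0 without each of the other arrays.

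Mitosis genes fell for 5 of 34 and rose for 3 (median -0.44), close to the 14.6% and 8.41% of all genes tested. The count of falls was 3 without CLP replicate 4, 5, 6 or 7 or with median centring. It was 8 without A replicates 4, 6 and 7. Aurka (-1.53 ± 0.40) and Birc5 (-1.24 ± 0.27) fell. Mki67, the Ki-67 gene, ran from 12243 to 15461 (median 13718) in the CLP and from 16829.7 to 50574 (median 21707) in A, where replicates 4, 6 and 7 were the highest (1.07 ± 0.25, adjusted p = 0.00489), and its call was lost with quantile normalization (adjusted p = 0.937). Kif23 rose (1.35 ± 0.27) without overlap, and the mean of its probe sets did not pass (adjusted p = 0.638). Among 16 inhibitors of cyclin-dependent kinases and members of the Rb and E2F families 5 fell and 1 rose, and 3 fell without CLP replicate 2 or with median centring. Cdkn1a, or p21, ran from 1962 to 3263 (median 2869) in the CLP and from 15.9 to 1133 (median 573) in A (-2.93 ± 0.60, adjusted p = 0.00216), and E2f2 (-1.86 ± 0.32) and E2f7 (-1.90 ± 0.48) fell without overlap.

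Genes of cytosolic ribosomal proteins rose for 21 of 29 tested members and fell for 1 (median 0.74, 23 and 1 without A replicates 4, 6 and 7), but with quantile normalization 0 rose and 2 fell (median -0.08), and with the mean of probe sets 13 rose and 2 fell. Their summed signal was 435598 to 1013060 in A, against 302358 to 346884 in the CLP, and A replicates 4, 6 and 7 were the highest for Rps20 (23619 to 78139 in A, 14145 to 17445 in the CLP, 1.32 ± 0.25) and Rpsa (1.32 ± 0.28). Rpl38 stood at 1.31 ± 0.22 and at 0.11 with quantile normalization. The mean over the probe sets of Rps20 stood at -0.08 and that of Rpsa at 0.44 (adjusted p = 0.161). The count of 1 that fell, Rpl12, became 2 without A replicate 6 or 7 and 0 without CLP replicate 1 or 2.

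Of 30 ribosome biogenesis genes 5 rose and 3 fell (median -0.06), and 3 rose without CLP replicate 5 or 7 while 5, 5, 5 and 6 fell without A replicate 1, 2, 3 or 5. With median centring the median was 0.17 and 1 fell, with quantile normalization 1 rose, and with the mean of probe sets 1 rose and 7 fell. Npm1 rose (1.18 ± 0.28, adjusted p = 0.00626) but stood at -0.13 with quantile normalization, and Nolc1 fell (-1.03 ± 0.20). Mitochondrial ribosomal protein genes rose for 0 of 43 and fell for 3 (median -0.39), with Mrps27 at -1.56 ± 0.32. Without A replicate 4 or 5, 5 fell, and without A replicate 1, 2 or 3, 1 rose.

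Oxidative phosphorylation genes rose for 9 of 41 and fell for 4 (median 0.07), and with quantile normalization 2 rose and 8 fell (median -0.11), with the mean of probe sets 5 rose, and with median centring 1 fell. Subunits of the same complex differed: of the ATP synthase, Atp5a1 rose (1.09 ± 0.22, but -0.12 with quantile normalization), and Atp5b fell (-1.67 ± 0.51, adjusted p = 0.0243, and 0.0784 with median centring), with A signals of 237 to 5365. Ndufa8 of complex I fell (-1.11 ± 0.30) and Uqcrc2 of complex III rose (1.09 ± 0.30), where the mean of its probe sets did not pass (adjusted p = 0.606). Of 18 glycolysis genes 2 rose and 5 fell (median -0.48, or -0.32 without A replicate 7). The count that fell was 3 without A replicate 2 or 3 or CLP replicate 1, 2, 4 or 6 and 2 without CLP replicate 3, 5 or 7, and 4 rose without A replicate 6, while 2 fell with median centring and 8 with the mean of probe sets. Pfkp, a phosphofructokinase, rose (1.49 ± 0.23, adjusted p = 2.02e-04), and Pfkfb3 (-1.35 ± 0.32), which makes its activator, and the lactate carrier Slc16a1 (-1.33 ± 0.25) fell, all 3 without overlap.

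In the sterol and fatty acid pathway 1 of 26 genes rose and 3 fell, and 1 fell without CLP replicate 7 and 2 rose without A replicate 7, with a median of -0.12, or 0.11 and 1 lower with median centring. Hmgcs1 rose (1.41 ± 0.29), though the mean of its probe sets did not pass (adjusted p = 0.304). Proteasome subunits had 3 of 30 higher and 3 lower, but 5 and 0 with median centring, 1 and 5 with quantile normalization, 6 and 4 without A replicates 4, 6 and 7, and 0 higher with the mean of probe sets. Their median of -0.12 became 0.12 with median centring and 0.04 without those arrays. Psmc5 stood at -1.31 ± 0.34 (adjusted p with median centring 0.0525). Of 29 chromatin genes 3 rose and 4 fell (median -0.25, or -0.09 without A replicate 4), and 0 rose with the mean of probe sets, while 5 rose and 2 fell with median centring. The Polycomb gene Cbx2 (-1.66 ± 0.26, adjusted p = 2.18e-04) fell and the remodeller Chd4 rose (1.0 ± 0.16), both without overlap, but the mean of the probe sets of Chd4 did not pass (adjusted p = 0.942). Phf6, a chromatin-associated protein, was 10, 25.5 and 175 on A replicates 4, 6 and 7 and 607 to 666 on the others, against 802 to 1068 in the CLP (-1.93 ± 0.59, and -0.63 without those arrays, with an adjusted p of 0.051 with median centring).

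The submitters name studies of hypodiploid leukaemia as related, and of 16 tested genes from a list written for that disease 2 rose and 5 fell (median -0.36). Ebf1, Pax5, Erg, Flt3 and Etv6 were those that fell, and Ikzf3 and the antiproliferative gene Btg1 (0.79 ± 0.23) rose. Btg1 lost its call with quantile normalization (adjusted p = 0.0692).

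The differences were also set beside the other populations of the series. Fraction A had the highest mean of the 7 populations for 636 of the 884 genes that rose and the lowest for 783 of the 1536 that fell, and the CLP had the highest for 783 of those that fell and the lowest for 198 of those that rose. Gzma had a mean signal of 30736 in A and of 111, 302, 1459, 22.9, 81.6 and 14 in the CLP and fractions B, C, D, E and F. The mean of Siglech was 4159 in A, 1048 in the CLP and 96.0 in B. Fraction B, which follows A in the scheme, had a mean far under that of A for both genes. Ebf1, Pax5 and Cd79a were lowest in A among all 7 populations, and Kit, Flt3 and Hoxa9 were highest in the CLP. These are orderings of means over 5 to 7 arrays, and neighbours in them were not tested here. Genes picked for a difference between A and the CLP more often have A or the CLP at an end of the order. The share over all genes tested was not counted, so these counts are descriptions.

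**Figure D5:**
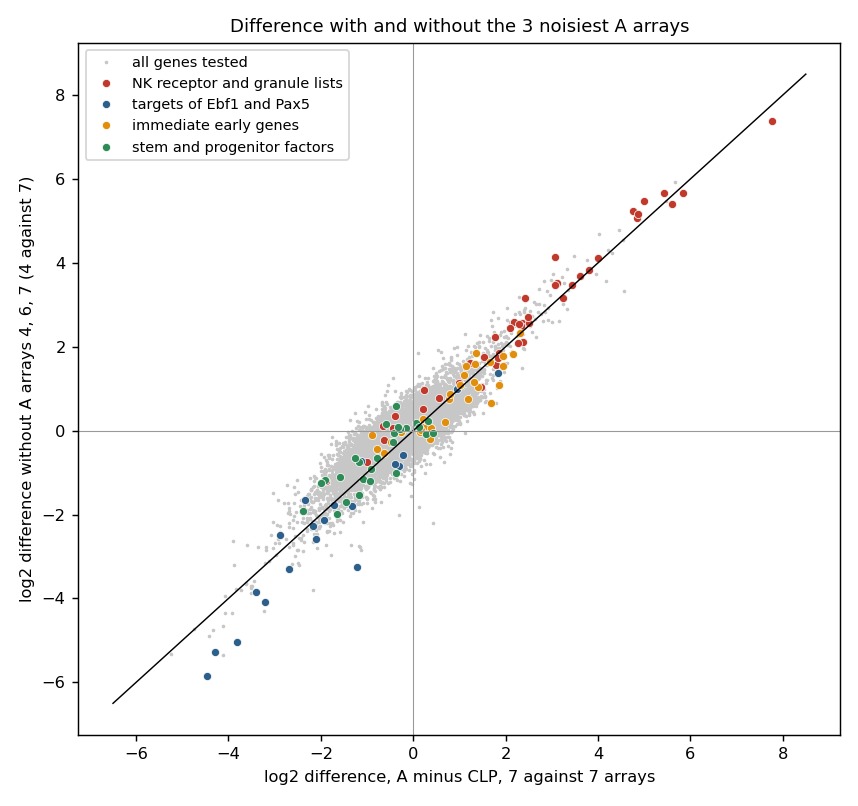
Each point is a tested gene, with its log2 difference, A minus CLP, over all 14 arrays on the horizontal axis and the difference without A replicates 4, 6 and 7 on the vertical axis; the line marks equal values and colours mark 4 groups of lists. Gzma lies close to the line at its upper end (7.76 and 7.37), and several targets of Ebf1 and Pax5 lie below it, such as Cplx2 (-4.46 and -5.84).

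Leaving out the noisiest arrays changed the size of some differences more than others. Gzma went from 7.76 to 7.37, Klrb1a from 5.42 to 5.68 and Siglech from 1.89 to 2.36. Gzma and Klrb1a are among the largest rises, which were chosen in part for being called without those arrays. That they are called there is therefore no test. Genes that fell in A and were high on replicate 4 or 7 fell further, as given above for Igll1 and Cd79a. Genes that were low on those arrays fell less, such as Icos (-3.03 and -1.48), Cdkn1a (-2.93 and -1.66) and Phf6. The ribosomal protein genes and Jund were nearer 0 (0.74 for Rps20 and 1.1 for Jund). No list median of the NK, plasmacytoid dendritic, type 2 and 3 innate lymphoid or Ebf1 and Pax5 lists changed sign.

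Promoters of the genes that rose in the NK lists were read for the core of the T-box element, since Tbx21 and Eomes rose with them. Of 43 such genes 32 had a window around a start site in the RefSeq promoter table of GRCm38.p6. The letters TCACACCT, on either strand, were in the windows of 1 of these genes (3.12%), against 86 of 8585 tested genes with a window (1.0%). The match was in Nkg7, at chr7:43436888-43437187 on the plus strand, shown here with the match in capitals because it is the only hit:
Nkg7: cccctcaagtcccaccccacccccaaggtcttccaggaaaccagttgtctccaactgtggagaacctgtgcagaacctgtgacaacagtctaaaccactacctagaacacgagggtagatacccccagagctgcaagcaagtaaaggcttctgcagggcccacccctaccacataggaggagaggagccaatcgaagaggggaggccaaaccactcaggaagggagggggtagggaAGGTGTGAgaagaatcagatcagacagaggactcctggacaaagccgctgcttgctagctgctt
The match reads as its reverse complement and begins 14 bases before the start site. It is a description of letters in this window and says nothing of binding. The letters of the Ebf1 element, TCCC, 2 bases of any kind and then GGGA, which read alike on both strands, were searched in the same way in the genes that fell in 3 B lineage lists (Ebf1 and Pax5 targets, receptor chains and signalling proteins). Of 18 such genes 15 had a window, and 0 of them held these letters, against 98 of 8585 tested genes (1.14%). Those letters are not in these windows, which says nothing of the factor.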

How the data were processed

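Fraction A and CLP RNA was measured on 7 arrays each. The deposited values are linear MAS5 signal intensity, which the authors scaled to a trimmed mean of 500 leaving out 2% at each end, per the labels; no version of MAS5 was given in the sources used here. Of 45101 probe sets, 64 controls were left out, 34958 named 1 gene, 932 several and 9211 none in the annotation used. A gene was represented by its probe set with the highest mean over 41 arrays and tested if it reached the array median on at least 5 of 14 arrays. Values were log2(intensity + 32), computed here, and A was compared with CLP by limma 3.58.1 in R 4.3.3 (lmFit, eBayes with trend and robust options, Benjamini-Hochberg adjusted p under 0.05), with all 14 arrays in the fit and no covariate. The procedure was also run on simulated data with noise drawn independently for each gene. Such data lack shifts shared by the genes of an array, so they do not test the calls under that kind of noise. Alternatives were all 41 arrays, other pseudocounts, filters, scalings and probe set rules, a replicate block, array weights, eBayes options, A replicates 4, 6 and 7 left out, and each array left out.

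Genes are named where they were among the 12 largest non-overlapping changes each way, up to 6 called members of each of 50 lists each way, or define a cell type or sort. The members and lists were chosen with earlier results of these data known. Promoter windows are from RefSeq (GRCm38.p6).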

Additional observations from a re-analysis of the deposited data

Results flagged for a closer look

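Single arrays stood apart from the other 6 of their population by Dixon's test for 43 of 548 combinations of a gene or list and a population (7.85%), and chance flags about 1 in 20 groups. Replicate 6 of A accounted for 16 of the 43 and replicate 7 of A for 6. Values below are log2(signal + 32), each followed by that of the nearest array, and no explanation was tested.

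On A replicate 1 the lowest value was that of Tmsb15a (10.25, nearest 12.39). On A replicate 1 the highest values were those of Car1 (9.03, nearest 6.71) and Ermap (10.20, nearest 8.11). On A replicate 2 the highest value was that of Isg20 (7.41, nearest 6.21). On A replicate 4 the lowest values were those of Il17rb (5.72, nearest 8) and Jak1 (10.94, nearest 11.54). On A replicate 5 the lowest value was that of Fos (10.75, nearest 12.78). On A replicate 6 the lowest values were those of Fcer1g (10.55, nearest 11.69), Slamf6 (8.02, nearest 9.53), Ccl5 (11.92, nearest 13.18), Cd4 (6.27, nearest 7.53), Ikzf3 (11.13, nearest 12.93), Cd93 (9.26, nearest 10.54), Selplg (10.63, nearest 12.21), Itgb2 (11.01, nearest 12.25), Gimap4 (11.55, nearest 12.76) and E2f2 (7.84, nearest 9.68). On A replicate 6 the highest values were those of Styk1 (13.56, nearest 11.60), Runx3 (13.45, nearest 12.38), Ctla4 (8.02, nearest 6.17) and Uqcrc2 (15.12, nearest 13.06). On A replicate 7 the lowest values were those of Il6st (9.22, nearest 9.99) and Tnfrsf21 (5.91, nearest 8.15). On A replicate 7 the highest values were those of Lyl1 (10.84, nearest 9.87), Traf1 (12.33, nearest 10.69) and Pfkp (12.33, nearest 11.43). On CLP replicate 1 the highest values were those of Xcl1 (8.29, nearest 7.30), Klra17 (7.33, nearest 6.74), Il2rb (8.71, nearest 7.53) and Rbl2 (10.70, nearest 10.08). On CLP replicate 2 the lowest value was that of Klrc1 (5.25, nearest 6.10). On CLP replicate 2 the highest value was that of Cd244a (12.48, nearest 11.94). On CLP replicate 3 the highest value was that of Klrb1a (8, nearest 6.15). On CLP replicate 4 the highest value was that of Vpreb1 (13.80, nearest 13.66). On CLP replicate 5 the lowest value was that of Atp5a1 (13.80, nearest 14). On CLP replicate 6 the lowest values were those of Ccl5 (8.70, nearest 8.95) and C1qb (6.25, nearest 7.87). On CLP replicate 7 the highest value was that of Cd81 (12.82, nearest 12.44).

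Among list means over members, that of basophil, mast cell and eosinophil genes was highest on A replicate 7 (10.38, nearest 9.15), that of erythroid genes was highest on CLP replicate 6 (10.69, nearest 9.47), that of B lineage transcription factors was lowest on A replicate 6 (9.93, nearest 10.21), that of V(D)J recombination and end joining was lowest on A replicate 6 (9.24, nearest 9.71) and that of MHC class II genes was lowest on A replicate 4 (8.72, nearest 9.38).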

How the results depend on the processing

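The counts of 884 genes higher and 1536 lower kept the balance of more lower than higher genes in every alternative but median centring. Fitting all 41 arrays gave 1346 higher and 2995 lower, leaving out A replicates 4, 6 and 7 gave 1748 higher, array weights gave 1621 and 2379, and testing each probe set gave 2857 lower, where more features are tested. A 75th percentile filter, which tests fewer genes, gave 909 lower and median centring gave 803 lower. Leaving out each array gave 746 to 1039 higher and 1155 to 1679 lower. With the replicate number as a block, 815 genes were higher and 1381 lower. Same-numbered A and CLP arrays correlated at -0.04 to 0.04 in their deviations and only replicate 7 matched best with its own number, so the numbers were not taken as pairs. Sign changes were those of Cd247 (0.053 without A replicates 4, 6 and 7 and 0.38 with the mean of probe sets), C1qb (-0.14, -0.37 and -0.43 without A replicates 1, 2 and 3, -0.17 without CLP replicate 6, a range of -0.43 to 0.56 over single arrays left out, and -0.32 with a pseudocount of 1), Npm1 (-0.13) and Atp5a1 (-0.12) with quantile normalization, and Rps20 (-0.075) with the mean of probe sets. The cause was not tested. Over all alternatives, the values of named genes kept direction and side of the threshold 5909 times, gained a call 38 times, lost it 75 times and changed sign 10 times. The largest changes among them were named only if also called without A replicates 4, 6 and 7, which favours such agreement. Precision here is set by having 7 arrays a population.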
